A study of Mus musculus with 4 samples.

Results

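This report follows 9 genes of efferocytosis, the clearance of dying cells by engulfment, in mature adipocytes of 2 mouse fat depots. The genes are the bridging proteins Gas6 and Mfge8, the receptors Axl, Mertk, Tyro3, Timd4, Stab1 and Lrp1, and the engulfment adaptor Elmo1. They were chosen by gene symbol, all 9 were found among the 18781 genes of the deposited table, and 8 were tested. The study sequenced total RNA of dermal adipocytes, from the fat layer of the back skin, and of inguinal adipocytes, from the fat pad of the groin, with 2 libraries each. The mice were of the inbred strain C57BL/6 and were sampled at postnatal day 30, and the labels name no genetic change, treatment or sex. The adipocytes were freed with collagenase IV and dispase II and collected as the floating layer after centrifugation, so other cells that stick to adipocytes, and free RNA, can be carried along.

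Dying cells expose phosphatidylserine, a lipid normally kept on the inner face of the plasma membrane. Phagocytes read it directly, through receptors such as Timd4 and Stab1, or through secreted bridging proteins. Gas6 links phosphatidylserine to the receptor tyrosine kinases Tyro3, Axl and Mertk, together called TAM receptors, and Mfge8 links it to integrins. Lrp1, a large endocytic receptor, takes up many ligands and recognizes calreticulin on dying cells. Elmo1 works with the exchange factor Dock1 to switch on the GTPase Rac1, which drives the actin rearrangement of engulfment. In fat tissue, macrophages take part in the clearance of dead adipocytes and their lipid.

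Gas6, Timd4, Stab1 and Lrp1 were higher in dermal than in inguinal adipocyte libraries, whereas the Gas6 receptors Axl and Mertk did not pass the test. Levels are normalized CPM, reads of a gene scaled to the size of its library, and a log2 difference is dermal minus inguinal on the log2(CPM + 0.5) scale, which understates the change of low genes. Gas6 had the largest difference of the members, with a mean of 199 ± 33.0 CPM in dermal fat against 37.4 ± 7.59 CPM in inguinal fat (SD, n = 2 each). Of the 8 tested members, 4 passed as higher in dermal fat and 0 as higher in inguinal fat by limma with Benjamini-Hochberg adjustment below 0.05. Over all 12797 genes tested, 7.56% passed as higher in dermal fat and 8.8% as higher in inguinal fat. The median log2 difference was 0.99 over the 8 members and 0.02 over all genes. Both dermal values lay above both inguinal values for 5 of the 8, against 31.6% of all genes, and below them for 1, against 30.1%. The 4 calls were the same without each library in turn and under each other setting tried, and Mfge8 or Elmo1 passed in addition under some of them. The 0 members called higher in inguinal libraries by limma were also 0 by edgeR and by DESeq2, and 1 member, Elmo1, had that direction at an unadjusted limma p under 0.05.

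**Figure D1:**
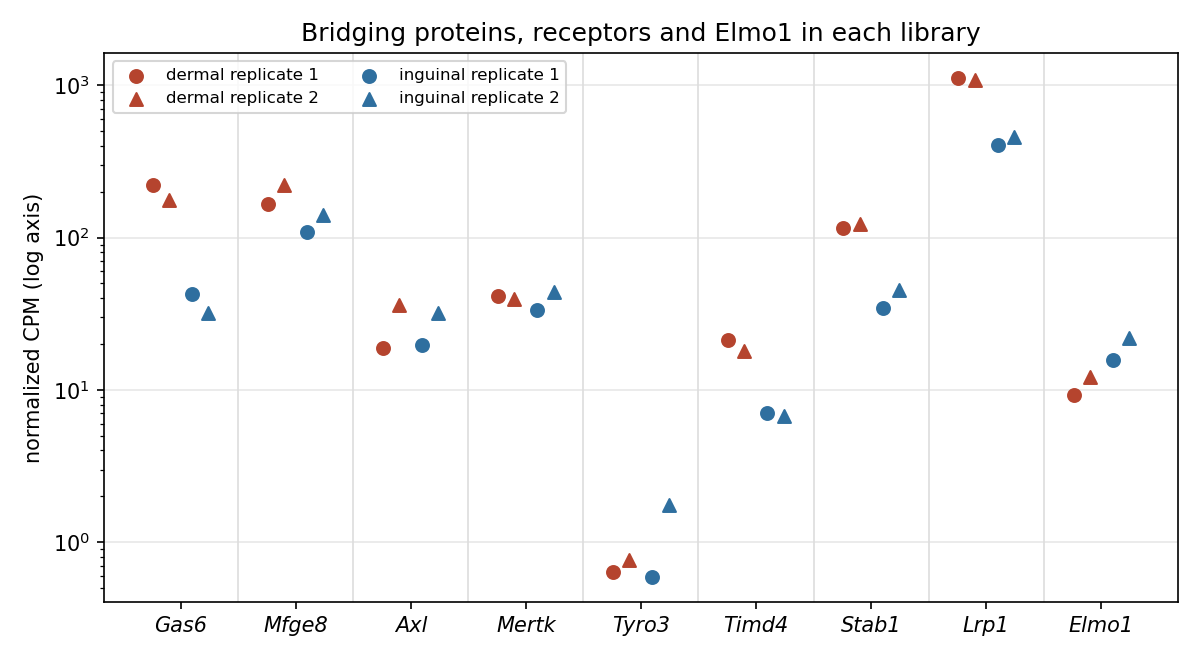
Normalized CPM of the 9 genes (log axis) in each of the 4 libraries, with dermal libraries in red and inguinal libraries in blue, circles for replicate 1 and triangles for replicate 2. Gas6, Mfge8, Timd4, Stab1 and Lrp1 have both dermal points above both inguinal points, Elmo1 has them below, and Axl, Mertk and Tyro3 overlap.

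The libraries held 10127125 to 12730013 reads assigned to genes, so 3 reads were worth between 0.253 and 0.291 CPM. Adipocyte markers were abundant in every library, with Adipoq, which encodes adiponectin, between 2965 and 3964 CPM, and the 15 adipocyte markers together took 6.47% to 7.14% of the reads. Markers of other cells were present too. The 20 macrophage markers summed to 1707 and 1587 CPM in dermal fat, against 598 and 564 CPM in inguinal fat, none of them was at 0 reads in any library, and 17 of the 19 tested were higher in dermal libraries (median log2 difference 1.46). The 15 endothelial markers went the other way, with 597 and 627 CPM in dermal fat, against 2088 and 3127 CPM in inguinal fat, and all 15 were higher in inguinal libraries. Some keratinocyte markers (6 of 8 tested, median 2.03), mast cell markers (3 of 6, median 2.16) and neutrophil markers (3 of 5, median 0.98) passed as higher in dermal fat. The mast cell marker Kit was lower there, and the neutrophil marker Cxcr2 had a negative difference (-0.45) that did not pass. Krt5, Krt15, Dsp, Perp, Lgals7 and the neutrophil marker Camp held 0 to 4 reads in inguinal libraries. They reached the filter through the dermal libraries only. Below the filter were 3 keratinocyte markers and 4 neutrophil markers, S100a9, Retnlg, Ngp and Ltf, which had lower means in dermal libraries. Smooth muscle and pericyte markers (8 of 10, median -1.28, with Cspg4 higher in dermal fat) and red blood cell markers (4 of 5, median -2.04) were higher in inguinal fat. All 11 lymphocyte markers in the table fell below the filter, at summed levels of 1.27 to 7.95 CPM. The part of these cells in the members' values was not tested. Libraries that hold fewer cells of a type cannot be told apart from libraries whose cells hold less RNA of it. Nothing in the labels ties the 2 libraries of a depot to different animals. The p-values therefore reflect the spread among these 4 libraries alone, and that spread may be technical.

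The sequences just upstream of the start sites of the 4 members that were higher in dermal libraries, and of Mertk, which was not, are shown so that their letters can be compared. Each window holds the 250 bases before the RefSeq start on GRCm38.p6, written 5′ to 3′ on the gene's strand. Capitals mark 3 motifs on either strand, with overlaps allowed: GAGGAA, the core bound by the myeloid factor PU.1, the composite site of ETS and interferon regulatory factors, GGAA and GAAA spaced by any 2 bases, and GGGCGG, the GC box.
Gas6, chr8:13494536-13494785, minus strand: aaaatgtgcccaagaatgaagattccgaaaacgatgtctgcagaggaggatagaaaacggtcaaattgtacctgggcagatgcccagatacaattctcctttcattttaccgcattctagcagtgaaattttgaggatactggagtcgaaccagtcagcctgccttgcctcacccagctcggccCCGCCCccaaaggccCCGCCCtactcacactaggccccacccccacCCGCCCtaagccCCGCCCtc
Lrp1, chr10:127621149-127621398, minus strand: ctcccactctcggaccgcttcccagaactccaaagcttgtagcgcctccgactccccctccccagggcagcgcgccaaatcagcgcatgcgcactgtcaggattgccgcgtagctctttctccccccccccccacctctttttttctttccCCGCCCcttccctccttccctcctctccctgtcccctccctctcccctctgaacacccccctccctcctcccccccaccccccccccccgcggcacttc
Stab1, chr14:31168642-31168891, minus strand: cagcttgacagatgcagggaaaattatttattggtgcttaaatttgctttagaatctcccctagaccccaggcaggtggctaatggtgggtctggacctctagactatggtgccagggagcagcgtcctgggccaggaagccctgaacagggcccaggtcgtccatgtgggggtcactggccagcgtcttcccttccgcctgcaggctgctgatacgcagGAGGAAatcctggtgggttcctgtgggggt
Timd4, chr11:46810549-46810798, plus strand: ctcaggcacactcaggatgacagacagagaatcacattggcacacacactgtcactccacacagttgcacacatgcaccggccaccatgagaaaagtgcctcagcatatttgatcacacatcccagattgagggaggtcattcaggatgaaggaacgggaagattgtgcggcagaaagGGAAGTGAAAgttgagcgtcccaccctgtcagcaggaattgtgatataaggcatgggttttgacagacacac
Mertk, chr2:128698665-128698914, plus strand: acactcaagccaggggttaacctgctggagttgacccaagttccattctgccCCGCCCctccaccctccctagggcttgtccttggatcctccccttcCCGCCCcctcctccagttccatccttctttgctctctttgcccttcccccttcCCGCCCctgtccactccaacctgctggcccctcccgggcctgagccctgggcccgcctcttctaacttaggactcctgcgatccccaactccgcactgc

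None of the 3 motifs was found in all 5 windows. Gas6 held 4 GC boxes, Mertk 3 and Lrp1 1, Stab1 held 1 PU.1 core, and Timd4 held 1 ETS and interferon regulatory factor composite. Of 32851 windows of the same length in the RefSeq table, 23.3% held the PU.1 core, 2.3% the composite and 32.7% the GC box. All 9 members had at least 1 window in that table, with 2 start sites for Elmo1 and 10 windows in all. A further motif, the E-box CACGTG, was also searched. None of the 10 member windows held it, against 6.02% of the 32851 windows. GC content was 67.2% in Lrp1, 63.6% in Mertk, 57.2% in Stab1, 54.8% in Gas6 and 50% in Timd4, against a median of 52.4%. Among members whose windows are not printed, Axl held 1 PU.1 core and 1 GC box, Mfge8 held 1 PU.1 core and 4 GC boxes, and Tyro3 held 3 GC boxes. Of the Elmo1 windows, 1 held 3 GC boxes and the other held none of the motifs. The PU.1 core was thus found in members that passed and in members that did not. The motifs were chosen after the sequences had been seen, and a match describes letters only.

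Gas6, a vitamin K-dependent secreted protein, lies on chromosome 8, 13465374 to 13494490, minus strand (GENCODE M21, GRCm38, as are all gene positions here). It measured 223 and 176 CPM in dermal fat, against 42.7 and 32.0 CPM in inguinal fat. Both dermal values were more than 4 times the higher inguinal value. The log2 difference was 2.40 (SE 0.19, limma adjusted p = 0.00178), and Gas6 ranked at place 46 of the 12797 genes by this difference. Within libraries of the same replicate number the dermal to inguinal ratio was 5.21 (95% counting interval 4.73 to 5.75) and 5.50 (4.89 to 6.20). Exons of Gas6 overlap exons of Tmem255b on the opposite strand, and Tmem255b measured 1.04 to 2.71 CPM. Pros1, protein S, the other plasma ligand of the TAM receptors, measured 90.0 and 107.8 CPM in dermal fat, against 86.7 and 96.1 CPM in inguinal fat. Its values overlapped between depots and it did not pass (log2 difference 0.11, SE 0.14, adjusted p = 0.649), and its sign turned without dermal replicate 2 (-0.020).

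Mfge8, the integrin ligand also called lactadherin, lies on chromosome 7, 79133768 to 79149060, minus strand. It measured 165 and 220 CPM in dermal fat, against 109 and 141 CPM in inguinal fat. The groups did not overlap, but the difference did not pass (log2 difference 0.62, SE 0.19, adjusted p = 0.0802). It passed without inguinal replicate 2 (0.80, adjusted p = 0.0136) and not without the other libraries. Its partner integrin chains gave 67.0 and 69.9 against 64.1 and 59.9 CPM for Itgav, the alpha V chain. Itgb5, the beta 5 chain, gave 116 and 109 CPM in dermal fat, against 74.6 and 57.8 CPM in inguinal fat. Itgb3, the beta 3 chain, gave 3.82 and 6.74 CPM in dermal fat, against 2.79 and 4.46 CPM in inguinal fat. Itgb3 overlapped between depots and did not pass (log2 difference 0.47, adjusted p = 0.396). Itgav did not pass (adjusted p = 0.483) and Itgb5 was higher in dermal libraries (log2 difference 0.77, SE 0.16, adjusted p = 0.0233). Itgb5 no longer passed without dermal replicate 1 (adjusted p = 0.116) or replicate 2 (0.0833), and with no intensity trend (0.0574).

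The 3 TAM receptors share a kinase domain and an outer region that binds Gas6. Mertk and Axl did not pass as different, and Tyro3 was not tested. Mertk, the receptor most tied to engulfment by macrophages, lies on chromosome 2, 128698956 to 128802894, plus strand. It measured 41.2 and 39.4 CPM in dermal fat, against 33.4 and 44.0 CPM in inguinal fat. Both dermal values fell between the inguinal ones (log2 difference 0.07, SE 0.17, adjusted p = 0.811), and the difference lay between -0.13 and 0.27 with each library left out in turn. A p that misses the threshold does not show equal levels. Axl, which is also found on fibroblasts and vessel cells, lies on chromosome 7, 25757273 to 25788705, minus strand. It measured 18.8 and 36.1 CPM in dermal fat, against 19.6 and 31.8 CPM in inguinal fat. Its values went with the replicate number rather than the depot. The library numbered 2 held 1.92 times the level of the library numbered 1 in dermal (95% counting interval 1.62 to 2.28) and 1.62 times in inguinal fat (1.37 to 1.93). The depot difference of Axl was 0.06 (SE 0.35, adjusted p = 0.922) and moved between -0.40 and 0.52 with a library left out. The 15 fibroblast and progenitor markers summed to 5699 and 11479 CPM in dermal fat, against 3716 and 6016 CPM in inguinal fat, higher in the library numbered 2 of both depots. Their part in the Axl values was not tested.

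Tyro3, the TAM receptor best known from the nervous system, lies on chromosome 2, 119797733 to 119818104, plus strand. It had 7 and 8 reads in dermal and 7 and 18 reads in inguinal libraries, or 0.637, 0.759, 0.591 and 1.75 CPM. Only inguinal replicate 2 reached 1 CPM, so Tyro3 fell below the filter and was not tested. Per kilobase of exon, Mertk made up 55.4% to 71.2% of the summed TAM level, Axl 28.0% to 43.8% and Tyro3 0.747% to 1.68%. This summed level was 13.4 and 16.4 CPM per kilobase in dermal and 11.7 and 16.8 in inguinal libraries, so the groups overlapped. The per-kilobase level of Gas6 was 6.54 and 4.22 times that sum in dermal libraries and 1.44 and 0.750 times in inguinal libraries. This ratio of ligand to receptor transcripts did not overlap between depots. Because the receptor sum overlapped, the gap restates the Gas6 difference given above and is not a separate result.

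Timd4, a phosphatidylserine receptor of resident macrophages, lies on chromosome 11, 46810800 to 46844332, plus strand. It measured 21.4 and 18.1 CPM in dermal libraries, from 235 and 191 reads. In inguinal libraries it measured 7.01 and 6.79 CPM, from 83 and 70 reads. Both dermal values were above both inguinal ones (log2 difference 1.45, SE 0.18, adjusted p = 0.00528). The ratio within a replicate number was 3.05 (95% counting interval 2.37 to 3.97) and 2.67 (2.02 to 3.56). Stab1, stabilin 1, a scavenger receptor of macrophages and sinusoidal endothelium, lies on chromosome 14, 31139013 to 31168641, minus strand. It measured 115 and 123 CPM in dermal fat, against 34.3 and 45.5 CPM in inguinal fat. The dermal values lay close together and far above the inguinal ones (log2 difference 1.58, SE 0.17, adjusted p = 0.00334). Stab1 shares exon sequence with Nt5dc2 on the opposite strand, which measured 2.28 to 5.98 CPM. Endothelial markers were lower in dermal libraries, in the direction opposite to Stab1, and macrophage markers were higher. Their part in the Stab1 values was not tested.

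Lrp1, the most abundant member by CPM, lies on chromosome 10, 127538161 to 127621148, minus strand. It measured 1116 and 1085 CPM in dermal fat, against 404 and 455 CPM in inguinal fat. The dermal libraries differed from each other by less than the inguinal ones did, and the groups stood far apart (log2 difference 1.36, SE 0.14, adjusted p = 0.00311). The ratio within a replicate number was 2.76 (95% counting interval 2.67 to 2.86) and 2.39 (2.31 to 2.47). Macrophages, fibroblasts and adipocytes all express Lrp1. Besides 17 of 19 macrophage markers, 3 of 15 fibroblast markers (Dpt, Thy1 and Fap) and 2 of 15 adipocyte markers (Plin1 and Lep) were higher in dermal libraries. The fibroblast marker Pdgfrb was lower. The list medians were 1.46, 0.34 and 0.16, and the part of these cells in the Lrp1 values was not tested. Elmo1 lies on chromosome 13, 20090596 to 20608353, plus strand, and was the 1 tested member with a negative difference. It measured 9.28 and 12.1 CPM in dermal fat, against 15.6 and 21.9 CPM in inguinal fat. The groups did not overlap and the difference did not pass (log2 difference -0.77, SE 0.23, adjusted p = 0.0724). It passed without inguinal replicate 1 (-1.01, adjusted p = 0.0167). An exon of Elmo1 overlaps the opposite-strand gene Gm32036, whose level is not analysed here. The 15 endothelial markers were higher in inguinal libraries, and their part in the Elmo1 values was not tested.

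**Figure D2:**
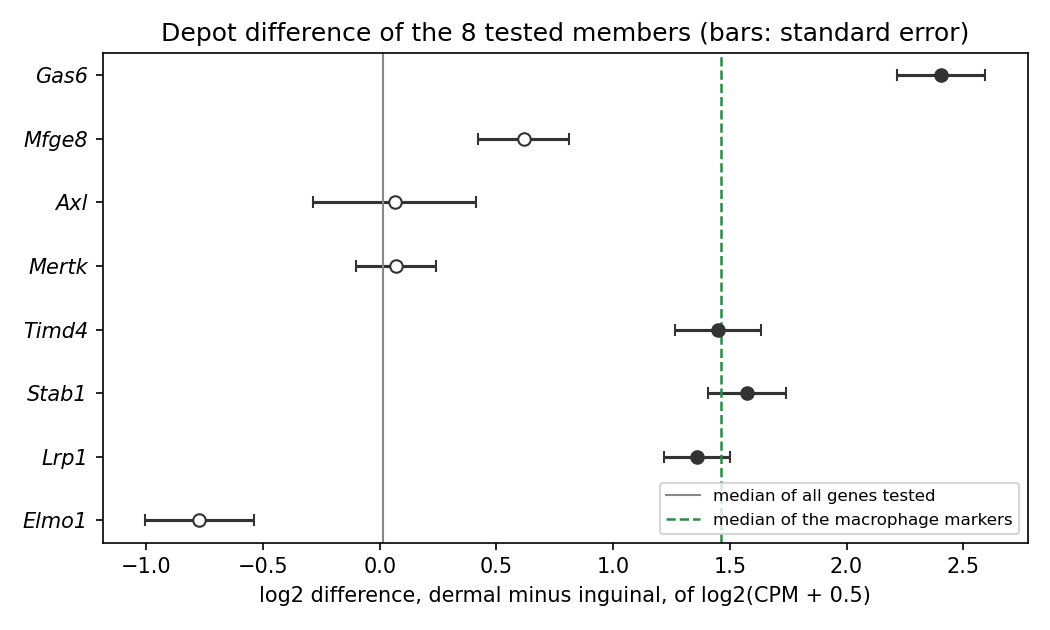
Log2 difference (dermal minus inguinal, log2(CPM + 0.5) scale) of the 8 tested members with bars of 1 standard error, filled where the adjusted p was below 0.05. The grey line is the median of all tested genes at 0.02 and the dashed line the median of the macrophage markers at 1.46. Timd4, Stab1 and Lrp1 sit near the dashed line, Gas6 beyond it at 2.40, and Mertk and Axl near the grey line.

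Because macrophage markers also stood higher in dermal libraries, each member was set against their summed CPM in the same library. This sum itself had a log2 difference of 1.5. These ratios are a description, since 2 libraries against 2 cannot give an exact two-sided permutation p below 0.33. Timd4 was 1.25% and 1.14% of the sum in dermal and 1.17% and 1.2% in inguinal libraries. Its ratio therefore overlapped between depots (log2 difference of the ratio 0.01). Stab1 was 6.73% and 7.72% of the sum in dermal and 5.73% and 8.06% in inguinal libraries (0.09). It also overlapped. Lrp1, at 65.4% and 68.4% against 67.5% and 80.6%, overlapped as well (-0.14). Timd4 and Lrp1 lay at -0.14 and -0.29 when Csf1r alone, which encodes a growth factor receptor of macrophages, was the denominator. Relative to Csf1r, Timd4 still overlapped between depots. Lrp1 did not, and both its dermal ratios lay below both inguinal ones, so its overlap depended on the denominator.

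Set against the macrophage sum, Gas6 was higher and Mertk lower in dermal libraries. Gas6 was 13.0% and 11.1% of it in dermal and 7.14% and 5.67% in inguinal libraries, a log2 difference of 0.92. Mertk was 2.42% and 2.48% of it in dermal and 5.58% and 7.80% in inguinal libraries, a log2 difference of -1.43. Neither set of ratios overlapped between depots. Axl (-1.44), Mfge8 (-0.88) and Elmo1 (-2.30) also had lower ratios in dermal libraries without overlap. The sum itself was higher in dermal libraries by a log2 difference of 1.5. A gene at equal levels in both depots therefore gets a dermal ratio lower by that amount. Mertk and Axl, with log2 differences of 0.07 and 0.06 in their own levels, lay near that value.

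**Figure D3:**
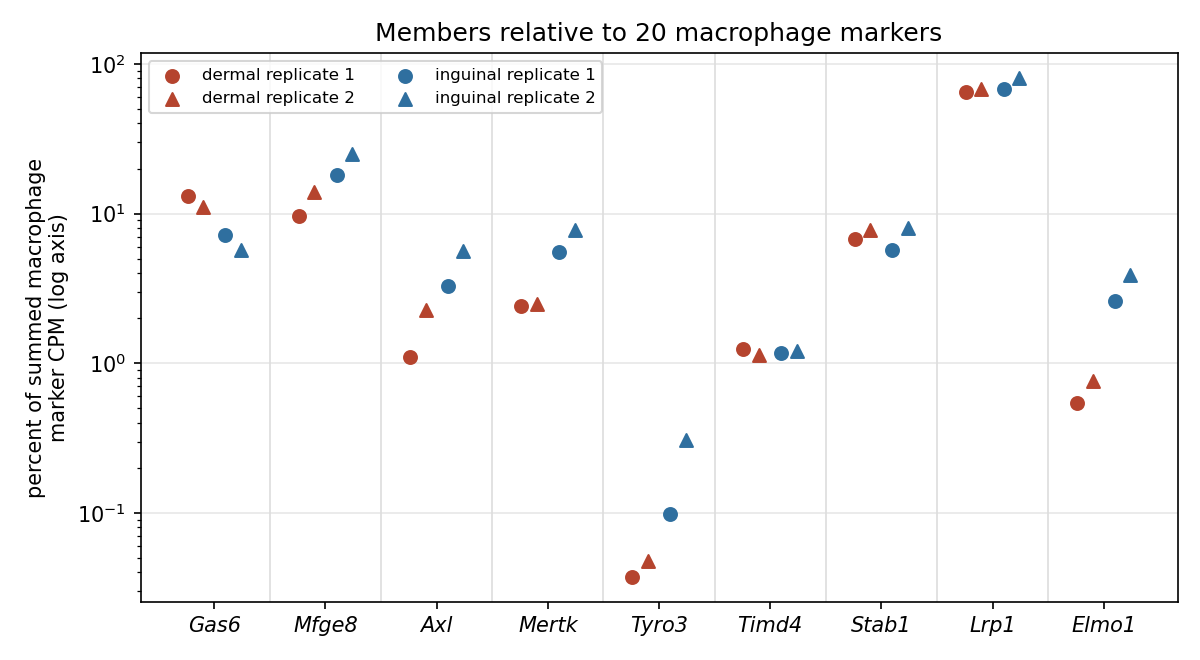
Level of each of the 9 genes as a percentage of the summed CPM of 20 macrophage markers in the same library (log axis), with dermal libraries in red, inguinal in blue, circles for replicate 1 and triangles for replicate 2. Timd4, Stab1 and Lrp1 overlap between depots, Gas6 is higher in dermal libraries, and Mertk, Axl, Mfge8, Tyro3 and Elmo1 are lower. The sum is higher in dermal libraries, so a gene at equal CPM in both depots also appears lower here.

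Levels were compared between members only per kilobase of exon. In dermal libraries the order was Gas6 (87.4 and 69.1 CPM per kilobase), Lrp1 (63.0 and 61.2), Mfge8 (35.1 and 46.8) and Stab1 (11.2 and 11.9). Timd4 (9.84 and 8.34), Mertk (9.51 and 9.08), Axl (3.74 and 7.18), Elmo1 (0.738 and 0.965) and Tyro3 (0.103 and 0.122) followed. Only Timd4 and Mertk overlapped among these neighbours. In inguinal libraries Mfge8 (23.2 and 30.1) and Lrp1 (22.8 and 25.7) overlapped at the top, with Gas6 (16.8 and 12.6) below them. Mertk (7.69 and 10.2) came next, then Axl (3.89 and 6.32) and Stab1 (3.33 and 4.42), which overlapped, Timd4 (3.23 and 3.12), Elmo1 (1.24 and 1.74) and Tyro3 (0.0954 and 0.282). The gene lengths are unions of annotated exons. With the longest transcript instead, 4 members held their place in every library, while Gas6, Lrp1 and Mfge8 remained the 3 highest and Tyro3 the lowest in all 4 libraries. On that length Mfge8 (94.3 CPM per kilobase) stood first and Gas6 (69.1) behind Lrp1 (72.9) in dermal replicate 2, so the place of Gas6 at the top held in dermal replicate 1 only.

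Other receptors and opsonins of the pathway were read from the same fit. The counts of each list below stand beside 7.56% of all genes tested higher in dermal and 8.8% higher in inguinal fat. Of 17 further engulfment receptors, 16 were in the table and 10 were tested. Among them 4 passed as higher in dermal fat and 0 as higher in inguinal fat, with a median log2 difference of 0.31. Apart from Itgb5, these were the scavenger receptor Msr1 (1.33, adjusted p = 0.00868), the lectin Cd209b (1.69, adjusted p = 0.00865) and the lipid receptor Trem2 (1.75, adjusted p = 0.0151), all expressed by macrophages. Cd209b belongs to a family of similar genes, so reads could have been shared. Trem2 had 26 and 25 reads in dermal and 5 and 3 reads in inguinal libraries. It reached the filter through the dermal libraries only, so its difference rests on inguinal values near the floor. Trem2 no longer passed without dermal replicate 1 (adjusted p = 0.0650) or 2 (0.0670), and Msr1 did not without dermal replicate 1 (0.0548). Cd36, a fatty acid and phosphatidylserine receptor abundant in adipocytes, measured 4509 and 5035 CPM in dermal fat, against 5516 and 5901 CPM in inguinal fat and did not pass (-0.26, adjusted p = 0.455). In the inguinal direction edgeR called 0 of these receptors and DESeq2 called 1, Scarf1, the 1 receptor with an unadjusted limma p under 0.05 in that direction.

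Among 10 tested bridging proteins and opsonins besides the members, 3 passed with higher levels in dermal and 2 in inguinal fat, and all 5 calls held without each library in turn. The 3 were the chains of complement C1q, made mainly by macrophages, which coats dying cells. C1qa measured 206 and 186 CPM in dermal fat, against 63.8 and 55.4 CPM in inguinal fat (log2 difference 1.71). C1qb (1.64) and C1qc (2.13) were higher in dermal libraries as well. The 2 higher in inguinal libraries were Thbs1, thrombospondin 1, a bridge to Cd36, and Ptx3, a secreted pattern recognition protein. Thbs1 measured 80.0 and 98.6 CPM in dermal fat, against 648 and 691 CPM in inguinal fat (-2.91, SE 0.15, adjusted p = 0.000664). Ptx3 measured 47.3 and 36.9 CPM in dermal fat, against 435 and 299.6 CPM in inguinal fat (-3.10, SE 0.21, adjusted p = 0.00161). Both went opposite to Gas6.

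Of 16 genes that carry the engulfment signal to Rac, 3 were higher in each depot, with a median of -0.25. The shares of all genes tested were 7.56% for dermal and 8.8% for inguinal fat. An unadjusted limma p under 0.05 was reached by 4 of the 16 in the dermal and 7 in the inguinal direction. Dock1, the ubiquitous partner of Elmo1, measured 113 and 105 CPM in dermal fat, against 132 and 139.9 CPM in inguinal fat and did not pass (-0.32, adjusted p = 0.127). Dock2, its counterpart in blood cells, was higher in dermal libraries (1.21, adjusted p = 0.00734), as were Rac2, the Rac of blood cells (1.57, adjusted p = 0.00562), and the exchange factor Vav1 (1.15, adjusted p = 0.0197). Rac1 itself measured 251 and 257 against 295 and 299 CPM and did not pass (-0.22, adjusted p = 0.248). The related adaptors Elmo2 (0.50, adjusted p = 0.116) and Elmo3 (0.70, adjusted p = 0.165) had positive differences that passed only without inguinal replicate 1 among the libraries left out (adjusted p = 0.0321 and 0.0125). The adaptor Crk (-0.49, adjusted p = 0.0484), the kinase Ptk2 (-0.65, adjusted p = 0.0261) and the exchange factor Vav3 (-1.22, adjusted p = 0.0241) were higher in inguinal libraries. These last 3 calls and that of Vav1 were lost without dermal replicate 1 (adjusted p = 0.241, 0.102, 0.0588 and 0.0903) or 2 (0.278, 0.183, 0.0591 and 0.104). Crk also missed without inguinal replicate 2 (0.0930), by edgeR (0.0504) and by DESeq2 (0.0550).

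Over all genes tested, 7.56% passed as higher in dermal fat and 8.8% as higher in inguinal fat. Of 16 phagosome genes, 4 passed as higher in dermal fat and 0 as higher in inguinal fat (median 0.18). These were Cybb (1.47, adjusted p = 0.00289) and Cyba (0.96, adjusted p = 0.0224), the membrane chains of the phagocyte oxidase, the autophagy gene Atg7 (0.58, adjusted p = 0.0335) and the lysosomal nuclease Dnase2a (0.89, adjusted p = 0.0398). Only Cybb passed without each library in turn. Without dermal replicate 1 the adjusted p was 0.119 for Cyba, 0.248 for Atg7 and 0.240 for Dnase2a, and without dermal replicate 2 it was 0.125, 0.146 and 0.0862. Dnase2a also missed without inguinal replicate 1 (0.0664), and DESeq2 called 2 of the 4, leaving out Atg7 (0.0576) and Dnase2a (0.0559). For this list edgeR and DESeq2 called 0 genes higher in inguinal libraries, and 1 gene, Rab5a, had an unadjusted limma p under 0.05 in that direction.

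Of 15 tested genes for signals that attract or repel phagocytes, 3 passed as higher in dermal and 3 as higher in inguinal libraries (median -0.34). Differences were positive for 4 of the 15 and negative for 11. An unadjusted limma p under 0.05 was reached by 3 genes in the dermal and 7 in the inguinal direction. Sirpa, the phagocyte receptor that reads the do-not-eat-me signal, measured 107 and 115 CPM in dermal fat, against 42.6 and 50.02 CPM in inguinal fat (1.26, adjusted p = 0.00362). Its ligand Cd47 was higher in dermal libraries too (0.56, adjusted p = 0.0366), as was the nucleotide receptor P2ry6 (1.67, adjusted p = 0.00646). Cd47 no longer passed without dermal replicate 1 (0.219), dermal replicate 2 (0.216) or inguinal replicate 1 (0.0569), and by DESeq2 (0.0749). S1pr1, a sphingosine phosphate receptor (-2.10), Pecam1 (-1.93) and Cd24a (-1.36) were higher in inguinal libraries, of which Pecam1 is also in the endothelial list. The endothelial markers were higher in inguinal libraries as well. The part of endothelial cells in the S1pr1, Pecam1 and Cd24a values was not tested. Cd24a no longer passed without dermal replicate 2 (adjusted p = 0.0834).

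Shedding of Mertk and Axl from the cell surface is carried out by the metalloproteases Adam17 and Adam10. Adam17 measured 70.3 and 79.9 CPM in dermal fat, against 81.7 and 87.3 CPM in inguinal fat (-0.17, adjusted p = 0.421). Adam10 did not pass either (-0.50, adjusted p = 0.0653). Among the libraries left out, it passed without inguinal replicate 1 (adjusted p = 0.0148). Timp3, an inhibitor of Adam17, was higher in inguinal libraries, at 58.6 and 82.1 CPM in dermal fat, against 376 and 491 CPM in inguinal fat (-2.62, SE 0.21, adjusted p = 0.00178). Rhbdf1, which helps Adam17 to mature, was higher in dermal libraries (1.15, adjusted p = 0.00620). Both calls held without each library in turn.

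Genes that work with Lrp1 were described from a list of 17, of which 13 were tested. Among them 2 passed as higher in dermal fat and 4 in inguinal fat (median 0.20), against 7.56% and 8.8% of all genes tested. Lrpap1, the chaperone that escorts Lrp1 through the secretory pathway, measured 179 and 176 CPM in dermal fat, against 167 and 117 CPM in inguinal fat. It did not pass (0.35, adjusted p = 0.252). Of the fits with a library left out, it passed in the 1 without inguinal replicate 1 (0.60, adjusted p = 0.0176). Dab2, an endocytic adaptor that binds receptor tails, was higher in dermal libraries (1.17, adjusted p = 0.00902), as was the protease Plau (0.96, adjusted p = 0.0179). The related receptor Vldlr (-1.42, adjusted p = 0.0150), Plat, the tissue plasminogen activator (-1.56, adjusted p = 0.0213), and Plaur, the receptor of the Plau product (-0.93, adjusted p = 0.0268), were among those higher in inguinal libraries. Calls were lost without dermal replicate 1 for Plau (0.0550), Plat (0.0603) and Plaur (0.165), and without dermal replicate 2 for Plau (0.0891) and Plaur (0.0548).

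Of 10 genes for sterol sensing and efflux, which phagocytes use to dispose of engulfed lipid, 1 was higher in dermal and 0 in inguinal libraries (median 0.34). These counts are near the shares of all genes tested, 7.56% and 8.8%. Rxra, the common partner of nuclear receptors, passed narrowly (0.46, adjusted p = 0.0474) and was lost without dermal replicate 1 (0.306), dermal replicate 2 (0.2498) or inguinal replicate 1 (0.0756), and by edgeR (0.0536) and DESeq2 (0.0774). The exporter Abca1 measured 874 and 949 CPM in dermal fat, against 709 and 749 CPM in inguinal fat and did not pass (0.32, adjusted p = 0.175). For this list edgeR and DESeq2 called 0 genes higher in inguinal libraries, and 0 had an unadjusted limma p under 0.05 in that direction. Apoe, the lipid carrier that Lrp1 also binds, measured 4939 and 4638 against 3402 and 3675 CPM without passing (0.44, adjusted p = 0.187).

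**Figure D4:**
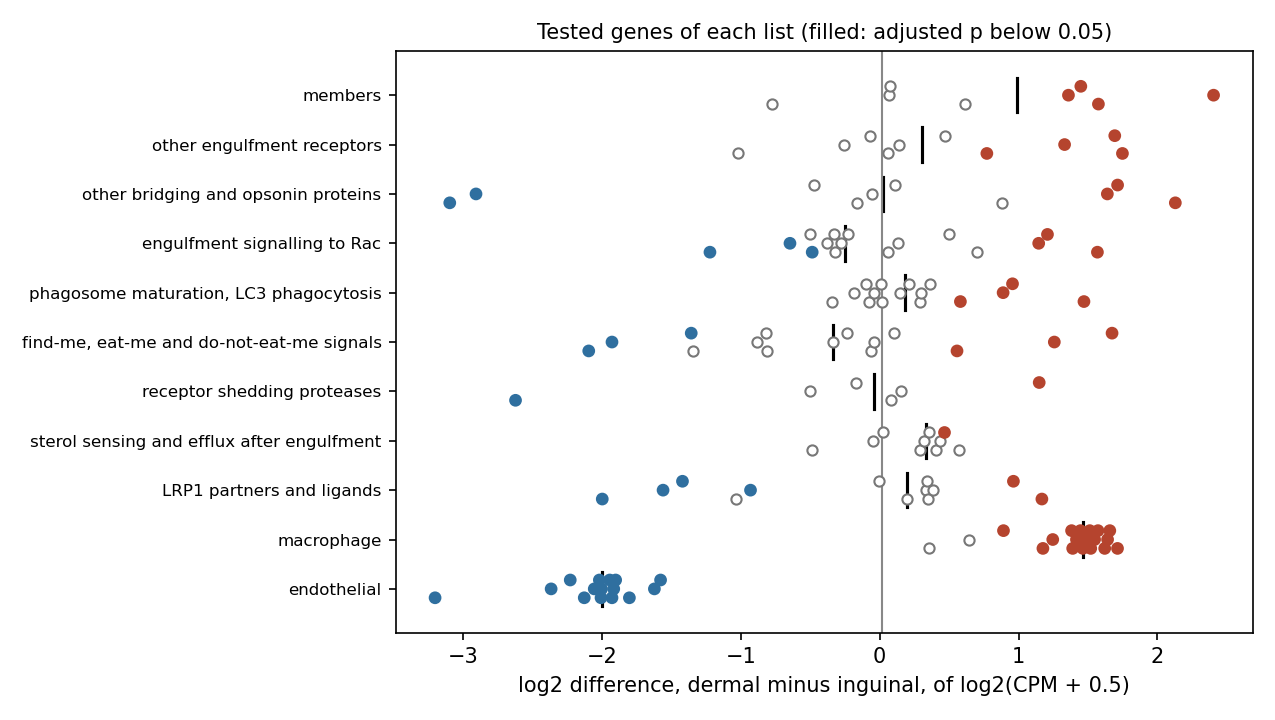
Log2 difference (dermal minus inguinal, log2(CPM + 0.5) scale) of every tested gene of the members, the 8 pathway lists and the macrophage and endothelial markers. Filled points had an adjusted p below 0.05, red where higher in dermal and blue where higher in inguinal libraries, black bars are list medians and the grey line is the median of all tested genes. The macrophage markers gather around 1.46 and the endothelial markers around -2.0, while the pathway lists spread on both sides of 0.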

How the data were processed

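The deposited table holds a gene-level signal, normalized CPM that the authors made by scaling reads to library size, with 1 more factor per library. In every column 100% of values were whole multiples of 1 read within 0.001. The submitters' processing notes list mm10, edgeR, featureCounts from Subread 1.4.6, Picard 1.127, TopHat2 2.0.12, FastQC and bcl2fastq, with no roles. The kit was stranded, per the labels' protocols. The strand setting of counting was not given in the sources used here. Genes at 1 CPM or more in at least 2 libraries were tested in R 4.3.3 with limma 3.58.1, two-sided, on log2(CPM + 0.5), with the variance trended on intensity and Benjamini-Hochberg adjustment over all genes tested. The fit was tested on simulated counts of independent libraries, with the same dispersion for every gene and no effect of the replicate number. That test therefore cannot speak for data in which same-numbered libraries deviate together. Alternatives were edgeR 4.0.16 and DESeq2 1.42.0 on the recovered reads, other pseudocounts, filters and scalings, and leaving out each library. Intervals are exact binomial at 95% and cover counting error only. The rule for named genes took all members and, per pathway list, the 2 genes lowest in adjusted p and the 2 highest in mean level, of which part is printed. Other pathway and marker genes were named once their values had been seen, among them further genes that passed. The values of 1 listed gene are not reported here. The members and lists were chosen with earlier results of these data known.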

Additional observations from a re-analysis of the deposited data

How the results depend on the processing

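Gas6, Timd4, Stab1 and Lrp1 kept direction and call under all 14 alternatives. With each library left out in turn, genes called higher in dermal libraries numbered 339 to 1212 and in inguinal libraries 568 to 1470. Members called higher in inguinal libraries numbered 0 to 1, Axl ranged from -0.40 to 0.52, Mertk from -0.13 to 0.27, Mfge8 from 0.41 to 0.82 and Elmo1 from -1.01 to -0.54 on the log2 scale, and Pros1 from -0.020, without dermal replicate 2, to 0.24. These fits hold fewer libraries, and the lone library is assumed to vary like the others. The labels pair no libraries. Deviations of same-numbered libraries from their depot means correlated at 0.46 across genes. With the replicate number as a block, 2342 genes passed as higher in dermal fat and 2384 as higher in inguinal fat, Mfge8 passed (0.62, adjusted p = 0.000523), and Elmo1 passed as 1 member higher in inguinal libraries (-0.77, adjusted p = 0.00162). Dock1 (adjusted p = 0.0367), Elmo2 (0.00419), Elmo3 (0.00393), Adam10 (0.00432), Lrpap1 (0.0483), Scarf1 (0.000831) and Rab5a (0.0253) also passed with the block. Among pathway lists, the block moved the count higher in dermal fat to 5 for Rac signalling, 4 for sterol genes and 5 for Lrp1 partners. It moved the count higher in inguinal fat to 7 for Rac signalling, 8 for find-me and related signals, 2 for shedding and 1 each for receptors, phagosome and sterol genes. Relative to Csf1r alone, Timd4 lay at -0.14 and Lrp1 at -0.29, and the Lrp1 ratio no longer overlapped between depots. With the longest transcript as length, 4 members kept their place in the order in every library. The cause was not tested. Among single pathway and marker genes followed across alternatives, 62 values lost a call and 18 gained one. Tyro3 is limited by depth. The length and single-library ratio alternatives were added after the data were seen.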
